A study of Mus musculus with 6 samples.

Results

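The immunity-related GTPases (IRG proteins) are a family of interferon-inducible GTPases of mouse cells, and 7 of their genes (Irgm1, Irgm2, Igtp, Iigp1, Ifi47, Tgtp1 and Tgtp2) were taken by gene name from the 54532 genes of the table. To examine whether loss of progranulin (PGRN, encoded by Grn) changes IRG transcripts in macrophages that meet a fungus, 3 wild type (WT) libraries, here WT 1 to 3, were compared with 3 progranulin knock out (PGRN KO) libraries, here KO 4 to 6. Values of the libraries are given in that order. All cells were of the C57BL/6J strain and were macrophages recruited from the mouse peritoneal cavity, plated at 2000000 cells per well and exposed to Candida albicans for 6 hours with 1 fungal cell per macrophage. Unchallenged cells were not analysed here, so there is no baseline for either genotype. The sources used here give no age for the mice whose cells were sequenced. Mice lacking PGRN in all cells were used, and WT mice came from another supplier than PGRN KO mice, so that genotype and supplier cannot be told apart. The text of the study calls the sequenced cells bone marrow-derived macrophages and gives another ratio of fungal cells to macrophages. Nothing in the labels ties a library to an animal or a culture, so that p-values measure the spread between these libraries, which may be technical.

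IRG proteins are made when interferon receptors signal through Janus kinases and STAT factors, and they act on the vacuoles in which intracellular pathogens live. The regulatory members, Irgm1, Irgm2 and Igtp (whose protein is also called Irgm3), carry the letters GMS in the nucleotide-binding loop, sit on the membranes of the cell and keep the other members inactive there. The effector members, Iigp1 (Irga6), Ifi47 (Irgd), Tgtp1 and Tgtp2 (both Irgb6), carry the letters GKS in that loop and coat the vacuoles of parasites such as Toxoplasma gondii, together with guanylate-binding proteins.

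The libraries held 15996786 to 17551619 counted fragments. Grn was at 323 to 337 FPKM (fragments per kilobase of gene model, scaled to library size) in WT and at 0 to 0.0167 FPKM in PGRN KO, on 0 or 1 fragment per library. The macrophage markers Adgre1, Cd68 and Lyz2 were at 162 to 195, 1103 to 1344 and 5657 to 8135 FPKM over the 6 libraries. The other macrophage markers listed, Csf1r, Itgam and Mertk, had separate groups and are given with the markers of other cells below. Of the markers of resident peritoneal macrophages, Gata6 was at 3.78 to 5.07 FPKM, and Timd4 at 0.0550 to 0.204 FPKM in WT and 0 to 0.0531 in PGRN KO. In KO 6 the deviation from the gene mean followed the length of the gene model, with a Spearman correlation across 8882 genes of -0.47, against 0.15 to 0.24 in the other libraries, and each count below is given with and without this library where it changes.

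Of the 7 members, 6 are encoded on chromosome 11 in 2 groups (coordinates on GRCm38). Irgm1 (48861968 to 48871683, minus strand), Tgtp1 (48985327 to 48994172, minus strand), Tgtp2 (49057194 to 49064206, minus strand) and Ifi47 (49076587 to 49096974, plus strand) form the first, and Igtp (58199556 to 58207591) and Irgm2 (58199618 to 58222782), both on the plus strand, form the second. All are annotated as protein-coding.

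The DNA just before the start sites is shown because 5 of these members hold, close to the start, the letters that interferon-activated factors are known to bind. RefSeq windows of 250 bases before to 50 bases after the start (GRCm38.p6) were found for 6 of the 7 members. The RefSeq starts of Irgm1, Irgm2 and Tgtp1 lie within their gene models in the table, that of Tgtp2 lies just outside its model, and those of Igtp and Ifi47 coincide with the start of the model. The windows were searched on both strands for GAAA, any 2 bases and a further GAAA, a form of the interferon-stimulated response element (ISRE), and for TTC, any 3 bases and GAA, the gamma-activated site (GAS), which reads the same on both strands. In each stretch of 60 bases below, written 5′ to 3′ on the strand of the gene, capitals mark these letters.
Igtp, chr11:58199497-58199556, plus strand: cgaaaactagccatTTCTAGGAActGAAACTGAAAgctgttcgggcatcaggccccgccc
Irgm2, chr11:58214888-58214947, plus strand: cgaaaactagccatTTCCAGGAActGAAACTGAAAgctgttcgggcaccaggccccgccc
Tgtp1, chr11:48992289-48992348, minus strand: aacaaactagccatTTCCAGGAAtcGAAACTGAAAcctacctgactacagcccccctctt
Tgtp2, chr11:49064248-49064307, minus strand: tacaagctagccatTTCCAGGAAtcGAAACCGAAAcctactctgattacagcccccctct
Irgm1, chr11:48871416-48871475, minus strand: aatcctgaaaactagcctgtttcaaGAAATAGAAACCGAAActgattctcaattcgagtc

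In Igtp, Irgm2, Tgtp1 and Tgtp2 a GAS match lay 2 bases before an ISRE match, and the pair began 45, 75, 88 and 81 bases before the start. In Irgm1 there were 2 overlapping ISRE matches, which began 30 and 24 bases before the start, and no GAS match. Neither set of letters was found in the Ifi47 window. Of all 32851 windows of this length, 3.44% held the ISRE letters, 8.3% held the GAS letters and 0.454% held both. The windows of Igtp and Irgm2 were 72.8% identical over 335 aligned columns, and those of Tgtp1 and Tgtp2 66.8% identical over 328 columns. A match describes the letters and does not show that a factor was bound.

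**Figure D1:**
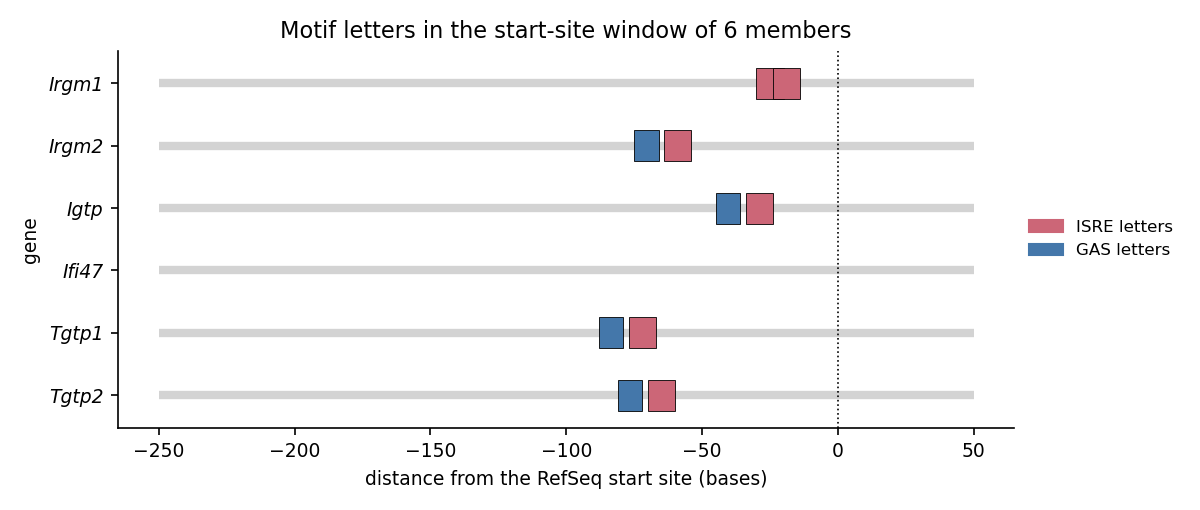
Positions of the ISRE letters (red) and GAS letters (blue) in the window around the RefSeq start site of 6 members, with the distance from the start in bases on the x axis and 1 gene per line. Igtp, Irgm2, Tgtp1 and Tgtp2 hold both, Irgm1 holds 2 overlapping ISRE matches, and Ifi47 holds none.

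For every member but Irgm1, the transcript level in each PGRN KO library was above that in each WT library. Genes with a mean of at least 1 FPKM over the 6 libraries were tested with limma on log2(FPKM + 1), a scale on which the change of a low gene is understated, and a limma p adjusted by the Benjamini-Hochberg method over all 8882 tested genes was taken as significant below 0.05. Of the 6 members tested, 5 were significantly higher in PGRN KO, none was lower, and Irgm1 did not pass. Over all tested genes 10.4% were called higher and 13.8% lower. Of all calls 42.8% were higher, against 60.3% on the TPM scale, where the same number of members passed. Tgtp1, with a mean of 0.85 FPKM, was below the limit for testing. Among the 6 tested members the median difference on the log2 scale was 0.77, against -0.03 for all tested genes. In 6 of the 7 members all PGRN KO libraries lay above all WT libraries, a pattern seen in 21.2% of tested genes, and in none were all below, which held for 27.6% of tested genes. Without a filter 3 members were called higher, against 2.63% of all genes. The members called numbered 4 without KO 6, where 15.9% of tested genes were called higher, and 4 without KO 5 (8.2%). They numbered 2, 3, 2 and 3 when WT 1, WT 2, WT 3 or KO 4 was left out, where 3.66%, 4.66%, 4.46% and 6.69% of tested genes were called higher. Iigp1 and Ifi47 were called in each of these.

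**Figure D2:**
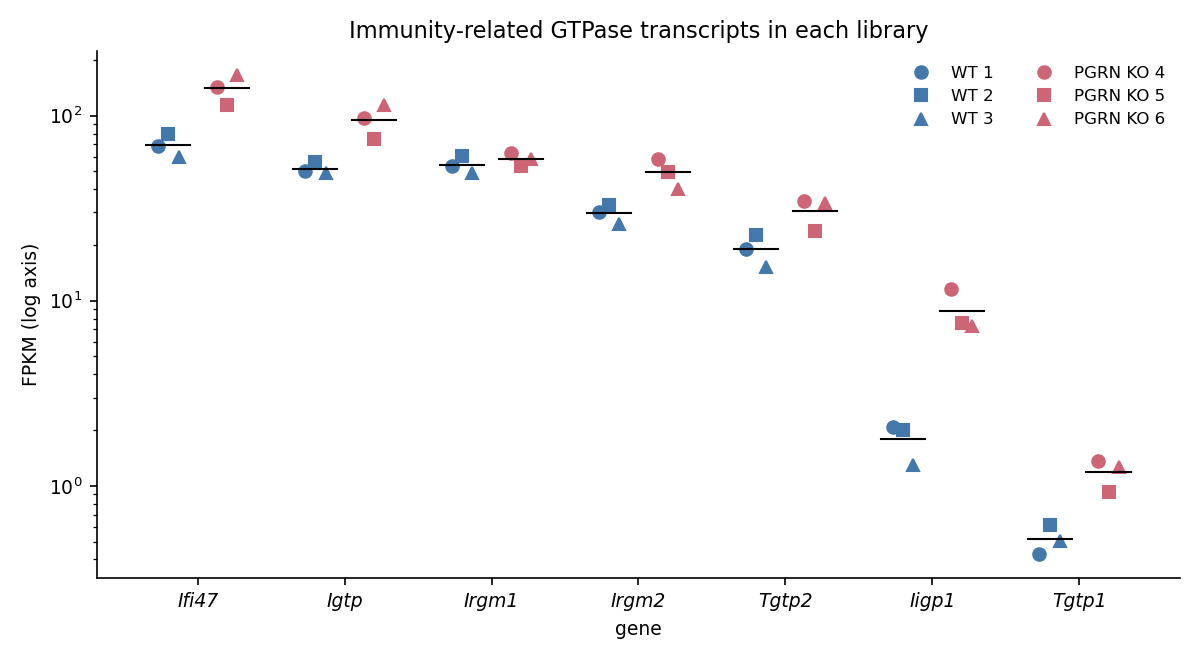
FPKM of the 7 genes on a log axis, with 1 point per library (WT blue, PGRN KO red; circle, square and triangle in the order of the replicate numbers) and a bar at the mean of each group (n = 3). The PGRN KO points lie above all WT points for 6 genes, whereas those of Irgm1 overlap with WT.

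Among the regulatory members, Irgm1 gave 53.4, 60.2 and 49.1 FPKM in WT 1 to 3 and 62.6, 53.6 and 58.0 FPKM in KO 4 to 6. The groups overlapped, and KO 5 and KO 6 lay below WT 2. Irgm1, which acts on lysosomes, the Golgi and mitochondria and is needed for mice to control mycobacteria, had a mean of 54.2 ± 5.61 FPKM in WT against 58.1 ± 4.52 FPKM in PGRN KO (SD, n = 3 each). The log2 fold change was 0.10 ± 0.11 (SE), with a 95% interval of -0.16 to 0.36 and a limma adjusted p of 0.537. By exact permutation of the libraries (two-sided) p was 0.4. The upper end of this interval lay below the log2 fold change of each of the other 5 tested members. It overlapped, however, with the 95% intervals of Irgm2 (0.33 to 1.07) and Tgtp2 (0.22 to 1.11). Irgm1 was counted on 5145 to 6303 fragments per library.

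Igtp, whose protein is found on the endoplasmic reticulum and on lipid droplets, gave 50.3, 56.3 and 48.8 FPKM in WT 1 to 3 and 96.9, 74.8 and 113.7 FPKM in KO 4 to 6. The lowest PGRN KO library lay above the highest WT library. The mean was 51.8 ± 3.95 FPKM in WT against 95.1 ± 19.5 FPKM in PGRN KO (SD, n = 3 each), a ratio of 1.84. On the log2 scale PGRN KO exceeded WT by 0.85 ± 0.16 (SE) (limma adjusted p 0.0119), and the call was lost without WT 1 (0.0596) and WT 3 (0.0541).

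Irgm2, a Golgi-associated member, gave 30.3, 32.9 and 26.1 FPKM in WT 1 to 3 and 58.4, 49.4 and 40.2 FPKM in KO 4 to 6. The groups did not overlap, and KO 6 was the library closest to WT. On the log2 scale PGRN KO exceeded WT by 0.70 ± 0.16 (SE) (limma adjusted p 0.0203). The call was lost without WT 1, WT 2, WT 3, KO 4 and KO 5 in turn (adjusted p 0.0757, 0.0535, 0.0787, 0.0514 and 0.0534), and it was 0.00324 without KO 6. The gene models of Igtp and Irgm2 overlap on the same strand over 8.01% and 4.39% of their exon bases, and 15.9% and 10.7% of their 31-base words occur in transcripts of other genes, mainly each other, so that a part of their fragments may be dropped or split between them.

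Among the effector members, Iigp1 had the largest fold change of the 6 tested members and was the lowest of them in WT. It gave 2.07, 2.01 and 1.30 FPKM in WT 1 to 3 and 11.5, 7.58 and 7.34 FPKM in KO 4 to 6. The groups were far apart. The mean rose from 1.79 ± 0.431 FPKM to 8.81 ± 2.34 (SD over 3 libraries each), a ratio of 4.91. The log2 fold change was 1.80 ± 0.19 (SE), with a 95% interval of 1.35 to 2.25 and a limma adjusted p of 0.00206. The gene lies apart from the others, on the plus strand of chromosome 18 (60376029 to 60392627). It kept its call in all 17 alternatives (adjusted p 0.000127 to 0.0151). Its size depended on the pseudocount, with 2.29 at a pseudocount of 0.01. The libraries held 73 to 108 fragments of Iigp1 in WT and 396 to 622 in PGRN KO, and the ratio of the summed fragments was 4.95 (exact 95% interval 4.35 to 5.66, counting error only).

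Ifi47 was the most abundant member in each library. It gave 68.5, 79.5 and 59.7 FPKM in WT 1 to 3 and 142.2, 113.8 and 166.4 FPKM in KO 4 to 6. The groups did not overlap. The mean rose from 69.2 ± 9.96 FPKM to 140.8 ± 26.3 (SD over 3 libraries each), a ratio of 2.03. On the log2 scale PGRN KO exceeded WT by 1.01 ± 0.17 (SE) (limma adjusted p 0.00819), and the call was kept in all 17 alternatives (adjusted p 0.000606 to 0.0438). Of its exon bases 8.77% overlap exons of Olfr56 on the same strand or Gm12188 on the opposite strand.

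Tgtp2 gave 19.0, 22.6 and 15.3 FPKM in WT 1 to 3 and 34.5, 23.8 and 33.7 FPKM in KO 4 to 6. The groups did not overlap, but KO 5 exceeded WT 2 by little. On the log2 scale PGRN KO exceeded WT by 0.66 ± 0.19 (SE) (limma adjusted p 0.0432). The call was kept in 11 of 18 alternatives. It was lost without WT 1, WT 2, WT 3, KO 4 and KO 6 in turn (adjusted p 0.126, 0.0627, 0.133, 0.111 and 0.0625), without a filter (0.115) and with a correction for gene length without KO 6 (0.0566).

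Tgtp1, the close paralog of Tgtp2, gave 0.429, 0.612 and 0.501 FPKM in WT 1 to 3 and 1.37, 0.923 and 1.26 FPKM in KO 4 to 6. The groups did not overlap, on 23 to 29 fragments per WT library and 56 to 76 per PGRN KO library. The ratio of the summed fragments was 2.31 (exact 95% interval 1.78 to 3.03, counting error only). Fitted without a filter, Tgtp1 had a log2 fold change of 0.53 and a limma adjusted p of 0.0640. Of the 31-base words of Tgtp1 and Tgtp2, 84.4% and 90.5% occur in transcripts of other genes, mainly each other, so that the split of fragments between the paralogs, and the low value of Tgtp1, are uncertain. When their FPKM were added up, the log2 fold change was 0.68 with a limma adjusted p of 0.0397. Exact two-sided permutation tests gave p = 0.1 for each of the 6 members with separate groups, the smallest that 3 against 3 libraries allow.

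**Figure D3:**
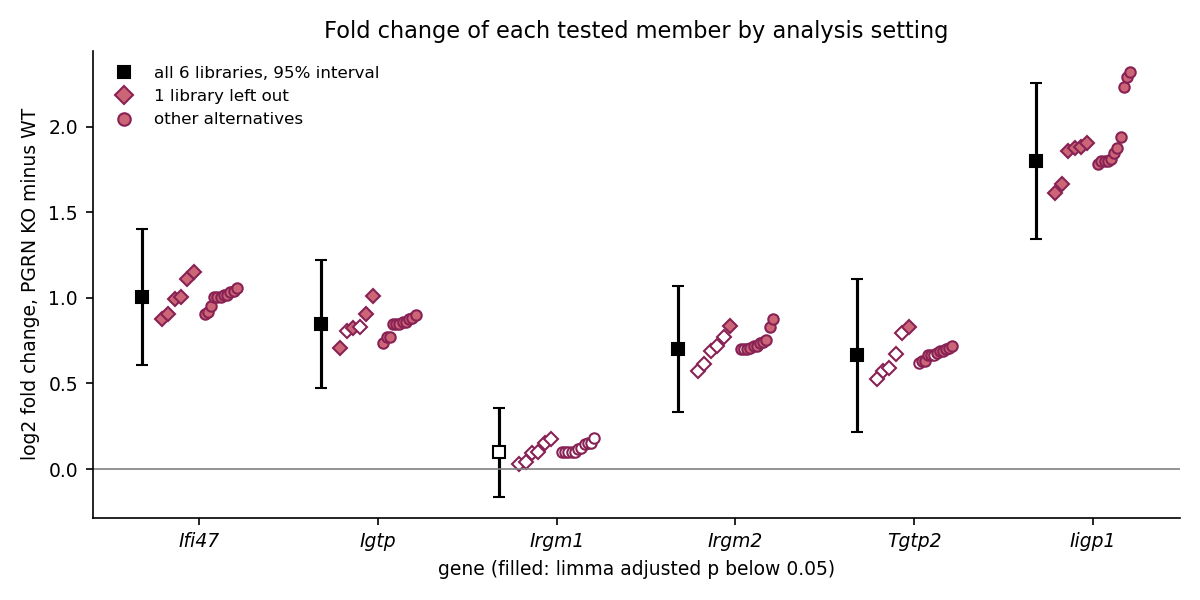
Log2 fold change (PGRN KO minus WT) of the 6 tested members in the test of all 6 libraries (square, with its 95% interval), with 1 library left out (diamonds) and under the other alternatives (circles); filled symbols have a limma adjusted p below 0.05. Iigp1 and Ifi47 are filled throughout, Irgm1 is open throughout, and Igtp, Irgm2 and Tgtp2 lose their call in some settings.

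Levels were compared between members in FPKM, which is per length of the gene model. The order in each WT library was Ifi47, Irgm1, Igtp, Irgm2, Tgtp2, Iigp1 and Tgtp1. In each PGRN KO library Igtp stood above Irgm1, and the order was otherwise the same. In WT the ranges of Ifi47 and Irgm1 overlapped, as did those of Irgm1 and Igtp, whereas in PGRN KO only the ranges of Irgm1 and Irgm2 overlapped between neighbours. The summed level of the 7 members was 226 ± 26.8 FPKM in WT against 384 ± 52.4 FPKM in PGRN KO (SD, n = 3 each), a ratio of 1.70. Of this sum Irgm1 made up 24.0% ± 0.403 in WT and 15.2% ± 1.38 in PGRN KO, Ifi47 30.5% ± 0.788 and 36.5% ± 2.64, and Iigp1 0.787% ± 0.139 and 2.30% ± 0.540.

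**Figure D4:**
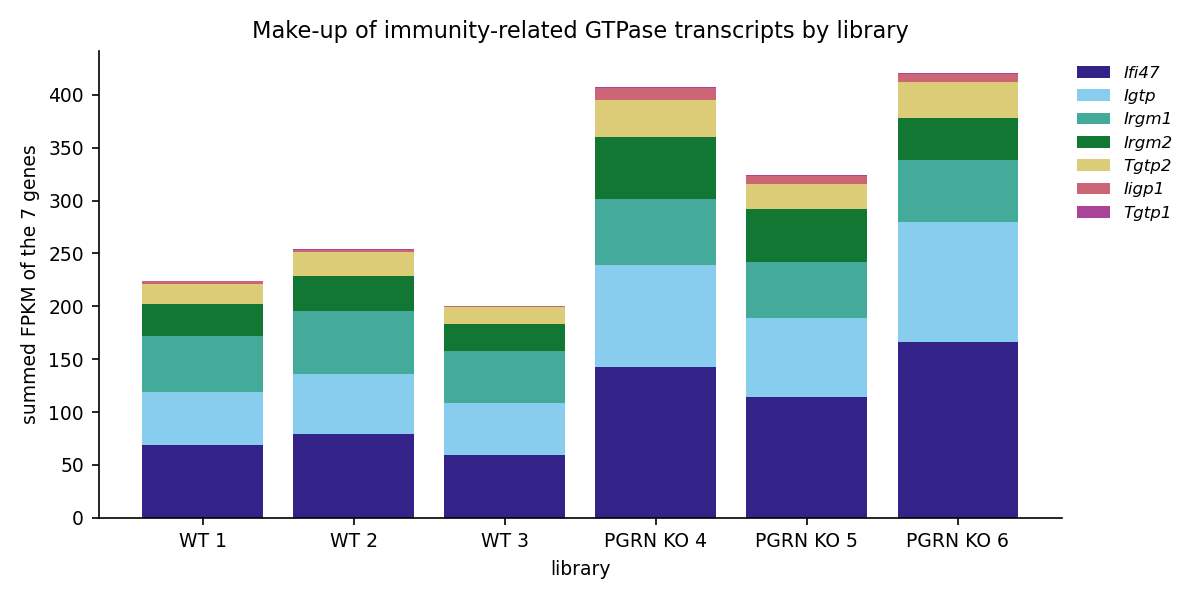
Summed FPKM of the 7 genes in each library as stacked bars that start at 0, with 1 colour per gene. The sums are 201 to 254 FPKM in WT against 324 to 421 FPKM in PGRN KO, and the Irgm1 part is of similar height in all 6 bars.

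To compare the members with Irgm1 within each library, the level of each of the other 6 was divided by that of Irgm1. The Igtp to Irgm1 ratio was 0.941, 0.935 and 0.995 in WT 1 to 3 and 1.55, 1.40 and 1.96 in KO 4 to 6. The ratio of Iigp1 to Irgm1 was 0.0387, 0.0335 and 0.0264 in WT and 0.184, 0.141 and 0.127 in PGRN KO. For all 6 genes every PGRN KO ratio lay above every WT ratio. The groups of these 6 genes were already separate and those of Irgm1 overlapped, so this outcome was largely set beforehand. The 6 ratios share a denominator and add no support to the separate values. The share of all genes with separate ratios to Irgm1 was not computed. These ratios and the shares above were not corrected for gene length, which the values of KO 6 followed. The gene models of Igtp and Irgm1 measure 2022 and 5810 bases. The mean difference in the log2 ratio was 0.59 for Tgtp2, 0.62 for Irgm2, 0.76 for Igtp, 0.92 for Ifi47, 1.10 for Tgtp1 and 2.20 for Iigp1. These ratios were taken on FPKM without a pseudocount. They cannot be set directly against the fold changes on log2(FPKM + 1), least of all for the low genes Iigp1 and Tgtp1. Each of these 6 comparisons gave p = 0.1 in an exact two-sided permutation test, the smallest that the design allows.

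KO 6 differed from KO 4 and KO 5 in opposite directions for different members. It was the highest PGRN KO library for Igtp and Ifi47, whose gene models measure 2022 and 2473 bases, and the lowest for Iigp1 and Irgm2, with 3121 and 3690 bases. For Irgm1, the longest at 5810 bases, and for Tgtp2 and Tgtp1, with 2938 and 3205 bases, KO 6 lay between KO 4 and KO 5. After a loess correction of each library for gene length, Igtp in KO 4 to 6 was at 6.68, 6.31 and 6.60 on the log2(FPKM + 1) scale and Ifi47 at 7.22, 6.90 and 7.20, so that KO 6 lay within the range of the other PGRN KO libraries. Irgm1, at 6.00, 5.78 and 5.99 after the correction, also lay within that range in KO 6. Irgm2 was then at 5.93, 5.69 and 5.31, still lowest in KO 6. Iigp1 was at 3.69, 3.14 and 2.95, further below the other PGRN KO libraries in KO 6 than without the correction. With this correction the log2 fold changes were 0.77 for Igtp, 0.95 for Ifi47, 0.71 for Irgm2, 1.78 for Iigp1 and 0.63 for Tgtp2, all past the threshold, and 0.18 for Irgm1, which did not pass (limma adjusted p 0.215).

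The other genes of the IRG family were examined next. Of 10 listed genes 5 were tested, and 2 of these rose in PGRN KO, Gm12250 and Gm5431, while none fell. Over all tested genes 10.4% rose and 13.8% fell. Without KO 6 there were 4 calls, where 3645 of all 8885 tested genes were called in either direction. Gm12250 encodes Irgb10, an effector known from bacterial infection that the table lists as a processed pseudogene. It gave 34.1, 41.1 and 30.8 FPKM in WT 1 to 3 and 83.2, 66.0 and 93.0 FPKM in KO 4 to 6. The groups did not overlap, and on the log2 scale the difference was 1.17 ± 0.16 (SE), at a limma adjusted p of 0.00452, kept in all 17 alternatives. Gm5431, in which 47.2% of the 31-base words occur in other genes, was at 4.80 ± 0.931 FPKM in WT against 12.9 ± 3.34 FPKM in PGRN KO (SD, n = 3 each), with a log2 fold change of 1.24 and a limma adjusted p of 0.00674.

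The paralogs 9930111J21Rik1 and 9930111J21Rik2 depended on KO 6. The level of 9930111J21Rik1 was 1.64, 1.78 and 1.60 FPKM in WT 1 to 3 and 5.17, 4.20 and 1.15 FPKM in KO 4 to 6. That of 9930111J21Rik2 was 3.67, 3.58 and 3.58 FPKM in WT and 9.13, 7.81 and 2.66 FPKM in PGRN KO. For both genes KO 4 and KO 5 were above all WT libraries, whereas KO 6 was below them. The log2 fold changes were 0.62 and 0.58 (limma adjusted p 0.253 and 0.269) with all libraries and 1.08 and 1.04 (0.000998 and 0.000655) without KO 6. Their gene models measure 4895 and 7017 bases. Correction for gene length left KO 6 at 1.14 and 2.04 on the log2 scale, still below the other 5 libraries. Of their words 88.9% and 70.6% are shared with other genes.

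Irgq, a family member that lacks GTPase function, was at 5.29 ± 0.256 FPKM in WT against 4.06 ± 0.874 FPKM in PGRN KO, with all PGRN KO libraries below WT and a log2 fold change of -0.33 that did not pass (limma adjusted p 0.131). Gm12185, Gm4841, Gm4951, F830016B08Rik and Irgc1 had means below 1 FPKM and were not tested. Gm4951 was counted on 44 fragments over the WT libraries and 216 over the PGRN KO libraries, a ratio of 4.55 (exact 95% interval 3.27 to 6.44, counting error only). Gm12185 was counted on 50 and 159 fragments. Gm4841 had 0 fragments in each WT library and 12, 7 and 4 in KO 4 to 6. With 3 fragments over the WT group taken as the limit that a count of 0 allows, the ratio was 7.10. This ratio takes the PGRN KO count without its counting error and is not a lower bound. F830016B08Rik was counted on 7 and 19 fragments and Irgc1, a gene mainly of testis, on 40 and 30.

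Guanylate-binding proteins, which gather with IRG proteins on pathogen vacuoles, were examined as interferon-inducible relatives. Of 11 genes 7 were tested, 6 rose in PGRN KO and none fell, where 10.4% of all tested genes rose and 13.8% fell. These 7 genes had a median of 1.04 on the log2 scale. Gbp2 rose from a mean of 96.3 ± 19.7 FPKM to 251 ± 47.0, by 1.38 on the log2 scale, with a limma adjusted p of 0.00521. Gbp3 and Gbp5 had log2 fold changes of 1.47 and 1.49, with adjusted p of 0.00343 and 0.00624. Gbp9 and Gbp6 rose by 1.04 and 0.58 on the log2 scale (0.0105 and 0.0244). Gbp4, at 0.675 ± 0.109 FPKM in WT, was tested only through its level in PGRN KO and had a log2 fold change of 0.75 (0.0149). The calls of Gbp4 and Gbp6 were lost without a filter (0.0545 and 0.0667), without WT 1 (0.0678 and 0.0746) and without WT 3 (0.0579 and 0.0701), and that of Gbp6 also without KO 4 (0.0689). Gbp7 was at 51.5, 42.2 and 24.3 FPKM in KO 4 to 6 against 18.6 to 26.3 FPKM in WT, and did not pass (0.0983). Without KO 6 all 7 tested genes were called, where 3645 of all 8885 tested genes were called in either direction. Gbp2b, Gbp8, Gbp10 and Gbp11 had means below 1 FPKM.

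The interferon pathway upstream of IRG genes was examined from ligand to transcription factor. Of 14 genes, all tested, 3 rose, 2 fell and 9 did not pass, where 10.4% of all tested genes rose and 13.8% fell. The median log2 fold change of the 14 genes was 0.10. Without KO 6 there were 6 calls among them, where 3645 of all 8885 tested genes were called in either direction. Neither ligand transcript passed the threshold. Ifng, the cytokine best known to induce IRG genes, was at 10.4, 10.8 and 8.73 FPKM in WT 1 to 3 and 10.8, 7.26 and 11.5 FPKM in KO 4 to 6. The groups overlapped, and the log2 fold change was -0.03 (95% interval -0.44 to 0.38, limma adjusted p 0.908). Ifnb1, a type I interferon, was at 5.41 ± 1.67 and 7.25 ± 1.77 FPKM, with a log2 fold change of 0.38 (95% interval -0.18 to 0.93, adjusted p 0.274). None of the receptor genes Ifngr1, Ifngr2, Ifnar1 and Ifnar2 passed the threshold, with log2 fold changes of -0.11 to 0.27.

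Among the kinases, Tyk2 rose from a mean of 2.50 ± 0.0868 FPKM to 4.41 ± 0.574 (0.62 on the log2 scale, limma adjusted p 0.00866), whereas Jak1 fell from a mean of 63.0 ± 2.84 FPKM to 40.9 ± 5.99 (-0.62 on the log2 scale, limma adjusted p 0.0146). The call of Jak1 was lost on the TPM scale (0.0626) and without WT 1, WT 2 or WT 3 (0.0701, 0.0688 and 0.0520). Stat2, a subunit of the complex that binds ISRE letters, rose by 0.54 on the log2 scale (limma adjusted p 0.0157). Without WT 1, WT 2 or WT 3 its log2 fold change was 0.55, 0.58 and 0.50, and the call was lost (0.0728, 0.0556 and 0.0701). Its partner Irf9 was at 20.6 ± 1.02 and 20.0 ± 0.678 FPKM and did not pass (0.745). Irf1 did not pass either (0.265), and Irf8, a factor of macrophage identity, fell from a mean of 54.7 ± 2.51 FPKM to 36.9 ± 6.65 (-0.57 on the log2 scale, limma adjusted p 0.0293). The call of Irf8 was lost without a filter (0.0754), after correction for gene length (0.0642) and without WT 1, WT 2 or WT 3 (0.0945, 0.0958 and 0.103).

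IRG proteins are loaded on vacuoles with the help of the conjugation machinery of autophagy, and ubiquitin ligases and adaptors follow them there. Of 13 such genes, all tested, 1 rose, 2 fell and 10 did not pass, beside the same 10.4% and 13.8% of all tested genes, and the median log2 fold change was 0.01. Atg12, a ubiquitin-like protein joined to Atg5, fell from a mean of 88.3 ± 1.61 FPKM to 49.6 ± 3.18 (-0.82 on the log2 scale, limma adjusted p 0.00202). Map1lc3b, the coat protein LC3B of autophagic membranes, fell from a mean of 19.3 ± 1.31 FPKM to 12.9 ± 2.66 (-0.56 on the log2 scale, limma adjusted p 0.0328) and kept its call in 10 of 17 alternatives (adjusted p 0.000363 to 0.114). Trim21, an interferon-inducible ubiquitin ligase, rose from a mean of 12.3 ± 1.31 FPKM to 25.3 ± 2.57 (0.98 on the log2 scale, limma adjusted p 0.00294). The other genes, among them Atg5, Atg7, Atg16l1 and Gabarapl2, had log2 fold changes of -0.39 to 0.39. Without KO 6 there were 6 calls in this list, where 3645 of all 8885 tested genes were called in either direction.

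**Figure D5:**
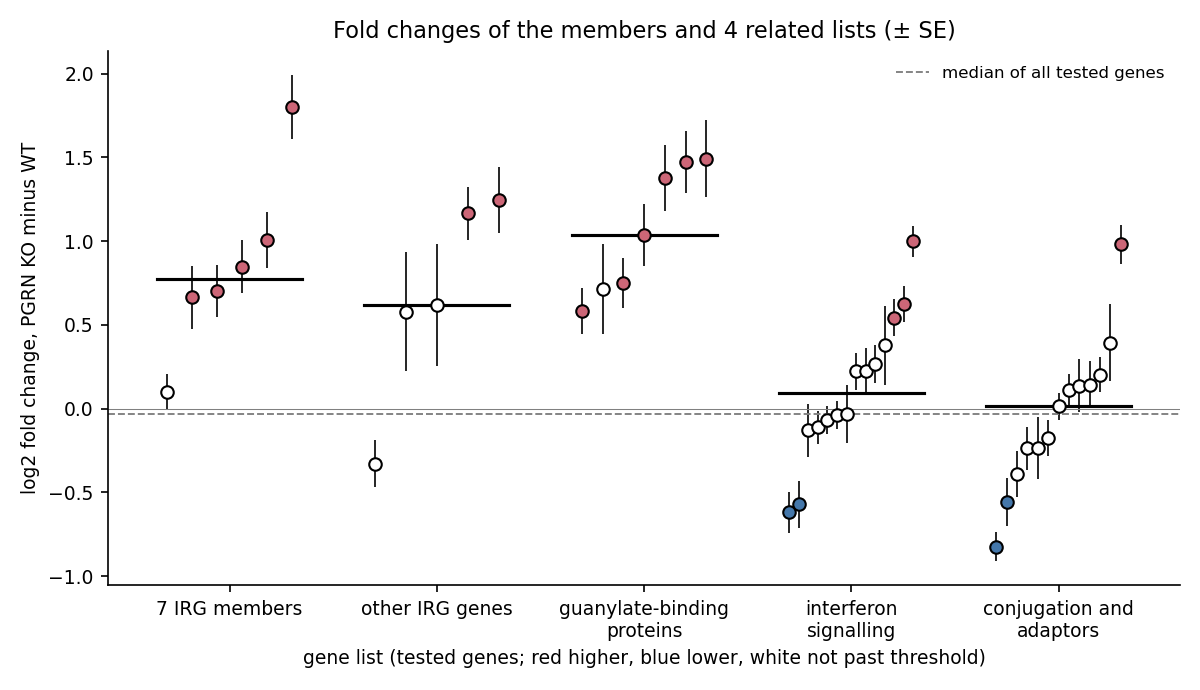
Log2 fold change (PGRN KO minus WT, ± SE) of each tested gene of the 7 members and of 4 related lists; red points were significantly higher, blue points significantly lower and white points did not pass, with a bar at the median of each list and a dashed line at the median of all tested genes. The medians are 0.77 for the members, 0.62 for the other IRG genes, 1.04 for guanylate-binding proteins, 0.10 for interferon signalling and 0.01 for conjugation and adaptors.

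Among the genes whose levels were most like those of the 7 members over the 6 libraries were Il18, Asb11, Aftph and Armc8, with Pearson correlations of 0.998, 0.997, 0.995 and 0.995 to the mean of the scaled member values. The correlation carries the difference between genotypes, and 5.79% of the 8028 genes ranked had a value above 0.9. Il18, a cytokine gene, was at 4.81, 6.23 and 3.92 FPKM in WT 1 to 3 and 13.7, 9.22 and 12.4 FPKM in KO 4 to 6. Il18 rose (limma adjusted p 0.00863), as did Aftph and Armc8 (0.0405 and 0.0407), whose calls were lost without WT 1, WT 2, WT 3 or KO 4 (Aftph 0.131, 0.0808, 0.139 and 0.108, Armc8 0.142, 0.0710, 0.140 and 0.109), and Asb11 did not pass (0.0502). Asb11, with a mean of 0.859 FPKM in WT against 1.36 FPKM in PGRN KO, was tested and ranked only through its level in PGRN KO. In Il18, as in Tgtp2, WT 2 was the highest WT library, WT 3 the lowest, and KO 5 the lowest of the PGRN KO libraries.

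Markers of other cells also moved with genotype, and their part in the IRG values was not tested. Over all tested genes 21.2% lay above WT in all PGRN KO libraries and 27.6% below, a share that leaves out markers below the limit for testing. All 4 B cell markers were higher in each PGRN KO library than in any WT library, with a summed level of 1.41 to 2.47 FPKM in WT against 6.31 to 8.77 FPKM in PGRN KO. Cd79a and Cd79b were tested only through their levels in PGRN KO, with WT means of 0.960 and 0.633 FPKM. The 7 markers of T and NK cells, the usual sources of Ifng, summed to 1.31 to 1.52 FPKM in WT against 2.06 to 2.83 FPKM in PGRN KO. Each was below the limit for testing. Of them 3, Cd3e, Cd4 and Cd8a, lay above WT in all PGRN KO libraries, and Cd3g and Nkg7 overlapped between the groups. Ncr1 and Klrb1c had lower means in PGRN KO (0.0604 and 0.00651 FPKM) than in WT (0.0671 and 0.0317 FPKM). Nkg7 made up 1.39 FPKM of the sum in KO 6. The 3 mast cell markers summed to 0.546 to 0.918 and 1.79 to 2.09 FPKM. Cpa3 and Mcpt4 were above WT in all PGRN KO libraries. Kit overlapped between the groups, with a mean of 0.345 FPKM in WT against 0.210 FPKM in PGRN KO. The 4 neutrophil markers summed to 48.3 to 52.9 and 21.3 to 26.2 FPKM, nearly all of it S100a8, while Ly6g was at 0 in all libraries. Dendritic cell and mesothelial cell markers summed to less than 1 FPKM in each library. Of the 6 macrophage markers Mertk rose and Csf1r fell. Itgam, with a mean of 50.3 FPKM in WT against 42.9 FPKM in PGRN KO, was lower in each PGRN KO library and did not pass (limma adjusted p 0.0848). Lyz2 was higher in each PGRN KO library and did not pass (0.400), while Adgre1 and Cd68 overlapped between the groups. Of the 3 markers of resident peritoneal macrophages Icam2 rose and Gata6 did not pass. Timd4, below the limit for testing, was lower in each PGRN KO library than in any WT library. In bulk libraries fewer cells of a type and less RNA per cell cannot be told apart.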

How the data were processed

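According to the study's methods, polyadenylated RNA was sequenced and reads of low quality or with adaptors were removed. Reads were aligned with HISAT2 2.0.5 and counted with featureCounts 1.5.0-p3 per the submitters' processing notes, which name GRCm38, whereas the methods name HTSeq for counting. The authors deposited FPKM per gene and library. Multiplied by the gene length in the same table, 100% of values above 0 came out as whole steps (tolerance 0.001 of a step), which gave fragments per library, and the library size behind them followed median-ratio size factors. The sources used here do not say if counting was stranded.

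Values were analysed as log2(FPKM + 1) with limma 3.58.1 in R 4.3.3 (variance trend, no covariates, two-sided), after a filter of a mean of at least 1 FPKM. The study used a model for counts, whereas here limma on the deposited FPKM was the main test and voom on the recovered fragments an alternative. Tested on simulated data, the fit recovered most of the changes built in, with a share of false calls somewhat above the nominal level. Alternatives were other pseudocounts and filters, the TPM scale, quantile normalization, no variance trend, quality weights, correction for gene length, and leaving out each library. Coordinates and exons were checked with GENCODE M21, in which 99.8% of the 54532 gene identifiers were found, and 98.3% of these had the same coordinates. Exact tests used SciPy 1.17.1. Intervals on fragments are exact Clopper-Pearson intervals and cover counting error only.

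The members, lists and alternatives were chosen with earlier results of these data known. Text names all members, Grn, list genes that passed or were not tested, and the 5 genes of most like pattern outside these lists, leaving out predicted gene models. Of the genes this rule takes, 2 are not reported here. Other list genes and markers are named as examples, chosen after their values were seen.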

Additional observations from a re-analysis of the deposited data

How the results depend on the processing

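No paired analysis was possible because no replicate number occurs in both genotypes. Direction was kept by each of the 6 tested members in every alternative run. Iigp1 and Ifi47 kept their call in all 17, and Irgm1 passed in none (log2 fold change 0.03 to 0.18). With 1 library left out, the log2 fold change was 0.71 to 1.01 for Igtp, 0.57 to 0.84 for Irgm2 and 0.52 to 0.83 for Tgtp2, and 2 to 4 members passed. Without a filter, with 22912 genes tested, 3 members passed, and Irgm2 (0.70) and Tgtp2 (0.66) did not. With a correction for gene length and without KO 6, Tgtp2 (0.62) did not pass.

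Over all genes 2151 were called, 921 of them higher (42.8%). The count was 1366 (603 higher) without a filter, 4225 (1757 higher) with sample quality weights, which gave KO 6 a weight of 0.0899, 3615 (1717 higher) with the length correction without KO 6, and 698 to 3645 (327 to 1415 higher) with 1 library left out. With voom on the recovered fragments 2234 genes and 5 members were called. With a mean of at least 5 FPKM 529 genes were higher. On the TPM scale 60.3% of calls were higher, with 10.4% of tested genes called higher.

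Calls among the other IRG genes rose from 2 to 5 with quality weights and to 4 with the length correction without KO 6, and were 2 to 4 with 1 library left out. Interferon signalling genes, with 5 calls, had 7 with quality weights and 2 to 6 with 1 library left out. Conjugation genes and adaptors, with 3 calls, had 5 after quantile normalization, 6 with quality weights, 6 with the length correction without KO 6, and 2 to 6 with 1 library left out. Over all tested genes, 4225 of 8882 were called in either direction with quality weights and 2182 of 8882 after quantile normalization. With the length correction without KO 6 the count was 3615 of 8885, and with 1 library left out it was 698 to 3645. For the shifts in the lists the cause was not tested. Over 25 other named genes, 370 of 419 comparisons kept direction and call, 38 lost it, 11 gained it and 0 changed sign. Depth limits Tgtp1 and the IRG genes below 1 FPKM.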
